A study of Mus musculus with 8 samples.

Results

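The metallothioneins Mt1 and Mt2, their transcriptional activator Mtf1, the zinc importers Slc39a14 and Slc39a4, and the metal exporters Slc30a1 and Slc30a10 were followed in the livers of mice treated with an antibody against CD47. These 7 genes were chosen by name for their place in zinc handling and were found by Ensembl identifier among the 54309 genes of the count table. The 8 libraries were made from polyadenylated RNA of whole liver: 4 from mice injected with antiCD47 and 4 from mice injected with IgG, the control antibody. All of the mice were male, of the C57BL/6J strain, and ate a fructose, palmitate and cholesterol diet (FPC) for 16 weeks, which gives a steatohepatitis, a fatty liver with inflammation and scarring. Both antibodies went into the peritoneum from week 8 to week 16, with 200 µg per mouse stated for antiCD47. The study had 7 to 8 mice per group. The labels do not tie a library to an animal, and p-values measure the spread between these libraries, which could be technical in part. There was no lean or untreated liver among the libraries, so both groups carry the diet. CD47 is the surface protein that tells macrophages not to engulf a cell, and the comparison asks what blocking it did to the diseased liver.

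Metallothioneins are small, cysteine-rich proteins that bind zinc and copper in the cytosol. The transcription factor MTF1 senses free zinc and binds metal response elements in the promoters of Mt1, Mt2 and Slc30a1, and in liver the metallothionein genes are also induced by glucocorticoids and by interleukin-6 through STAT3. SLC39 proteins (ZIP) bring zinc into the cytosol and SLC30 proteins (ZnT) take it out. SLC39A14 (ZIP14) is the hepatocyte importer induced by interleukin-6 in the acute phase response, when plasma zinc falls and liver zinc goes up; it also carries manganese and non-transferrin iron.

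Total counts lay between 43691472 and 55477484 per library. Genes were compared with edgeR's quasi-likelihood test, with p adjusted by Benjamini and Hochberg over 15472 tested genes and 0.05 as the threshold, and levels are given as CPM, the count of a gene scaled to a common library size. Hepatocyte markers were abundant, with a summed level of 81875 to 95479 CPM in antiCD47 libraries and 77471 to 84614 CPM in IgG libraries. Acinar markers of the pancreas, another tissue rich in zinc, summed to 4.85 to 8.70 CPM in antiCD47 and 6.74 to 10.1 CPM in IgG, with Prss2 and Pnlip at 0 counts in every library. The IgG 2 library stood apart from the other IgG libraries in the metallothioneins and the acute phase genes, so the 7 genes and the counts of the lists that moved are also given without it. Its acute phase list summed to 36343 CPM, against 20805 to 21772 CPM in IgG 1, IgG 3 and IgG 4.

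Of the 7 genes, 3 rose with antiCD47 (Slc30a10, Slc39a14 and Slc30a1) and 0 fell (0 also at an unadjusted p under 0.05, and 0 by DESeq2), where 5.44% of all tested genes rose and 5.4% fell. Mt1 and Mt2 had the largest fold changes of the 7 but missed the threshold with all libraries in the edgeR fit described above, and IgG 2 held several times more of both than its 3 fellow controls. Other edgeR settings with all libraries called Mt1 higher, such as library totals as the scale (adjusted p = 0.0398). Without IgG 2 both passed. IgG 2 was singled out for its high level of these same genes, so that fit is no independent support. Without IgG 1, IgG 3 or IgG 4 neither passed (edgeR adjusted p = 0.115 to 0.138 for Mt1 and 0.156 to 0.188 for Mt2). With all libraries Mt1 passed by DESeq2 (adjusted p = 0.0157) and Mt2 did not (0.0578). Both passed by limma voom (0.0258 for Mt1 and 0.032 for Mt2), and neither by edgeR's robust fit (0.0898 and 0.134). Mtf1 and Slc39a4 did not pass.

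**Figure D1:**
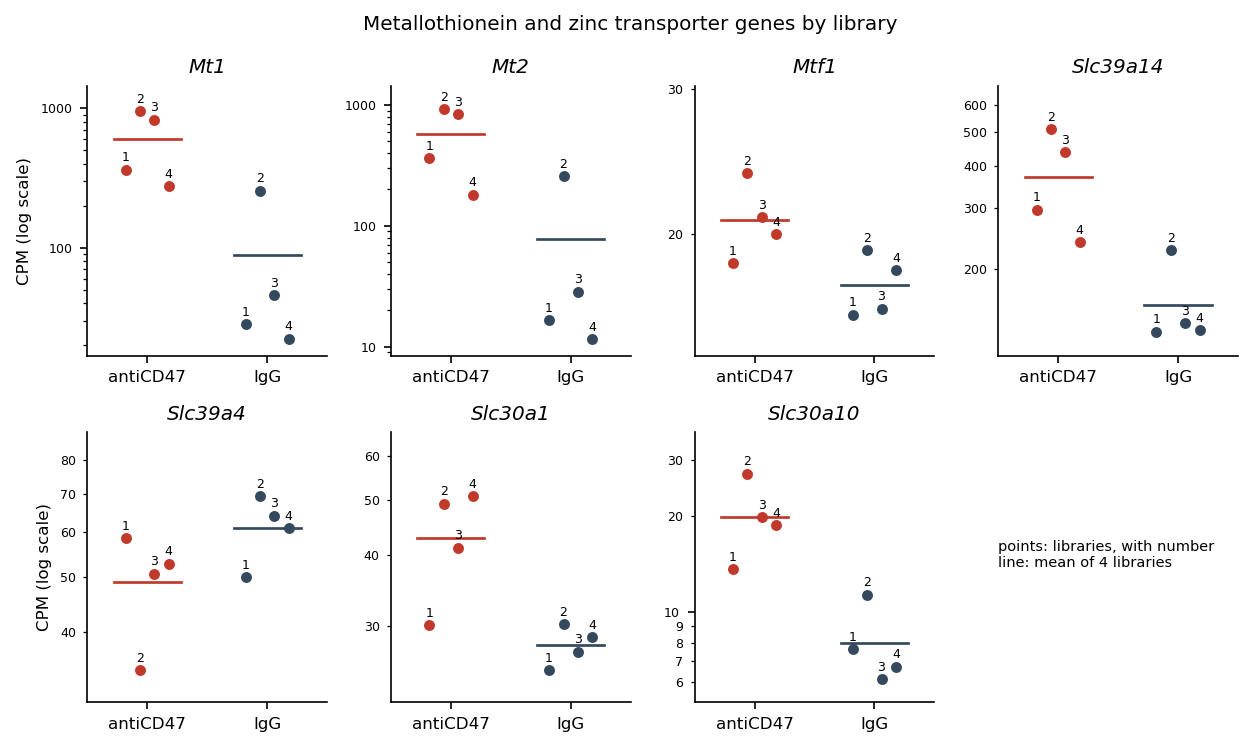
CPM of the 7 genes on log axes, 1 point per library with its number, antiCD47 left and IgG right, and a line at the mean of 4 libraries. In the panels of Mt1, Mt2 and Slc39a14 the IgG 2 point lies apart from the other IgG points, and the antiCD47 and IgG points of Mt1, Slc39a14 and Slc30a10 do not overlap.

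Mt1 and Mt2 are neighbours on chromosome 8, and in the RefSeq table of build GRCm38.p6 the start of Mt1 lies 6471 bases after that of Mt2. The 250 bases before each start are printed because the pair moved together across libraries and metal response elements are their known zinc switch. Capitals mark the core of that element, TGCACNC or TGCGCNC, searched on both strands.
Mt1, chr8:94178839-94179088, + strand: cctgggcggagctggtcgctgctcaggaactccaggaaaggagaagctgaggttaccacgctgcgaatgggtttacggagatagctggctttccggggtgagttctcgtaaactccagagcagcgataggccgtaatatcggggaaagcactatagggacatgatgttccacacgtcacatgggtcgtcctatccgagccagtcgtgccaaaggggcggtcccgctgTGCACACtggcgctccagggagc
Mt2, chr8:94172368-94172617, + strand: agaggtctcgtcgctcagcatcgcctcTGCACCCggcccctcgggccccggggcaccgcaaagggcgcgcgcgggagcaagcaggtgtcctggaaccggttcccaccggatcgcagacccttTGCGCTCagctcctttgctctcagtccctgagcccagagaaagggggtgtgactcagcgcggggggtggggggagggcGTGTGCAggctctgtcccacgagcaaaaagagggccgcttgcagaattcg
In the whole window of 300 bases, 50 of them after the start, Mt1 held 3 cores and Mt2 held 4. After the RefSeq start lay the Mt1 cores at bases 3 to 9 and 21 to 27 and the Mt2 core at bases 5 to 11. Which start is used in liver was not tested, and cores outside the windows were not counted. At least 1 core was present in 25.7% of 32851 RefSeq mouse promoter windows, at least 3 in 1.97% and at least 4 in 0.517%. The STAT element, TTCNNNGAA, was in neither window and in 8.3% of all. A match is a run of letters and not a measured binding site.

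Mt1 had 362, 959, 829 and 276 CPM in antiCD47 libraries 1 to 4, against 28.2, 256, 45.5 and 22.2 CPM in IgG libraries 1 to 4. The lowest antiCD47 library was thus above the highest IgG library, IgG 2, while the other IgG libraries lay far below both. The log2 fold change was 2.78 ± 0.80 (SE) with an adjusted p of 0.053 by edgeR (0.00441 to 0.138 over 18 alternatives, of which 9 passed). Without IgG 2 the log2 fold change was 4.25 ± 0.52 and the adjusted p 0.0112, where 5.08% of 15690 genes rose. Non-overlapping higher values, as Mt1 had, were found in 9.51% of all tested genes.

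Within each group Mt2 had the same order of libraries as Mt1. It had 362, 922, 839 and 182 CPM in antiCD47, against 16.6, 257, 28.6 and 11.5 CPM in IgG, so antiCD47 4 was below IgG 2 and the groups overlapped. Its log2 fold change was 2.88 ± 1.00 with an edgeR adjusted p of 0.0846 (0.00543 to 0.188 over the alternatives, of which 4 passed), and 4.93 ± 0.66 with 0.0123 without IgG 2. The IgG 2 library held 8.02 times the mean of the other IgG libraries for Mt1 and 13.6 times for Mt2. Of the other metallothioneins, Mt3 had 6 counts over the antiCD47 libraries and 9 over the IgG libraries and was not tested, and Mt4 had 0 counts in all libraries, a limit of 3 counts or 0.0695 CPM in the shallowest.

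Together Mt1 and Mt2 took 0.0692%, 0.168%, 0.152% and 0.0453% of all counts in antiCD47 libraries, against 0.0046%, 0.0532%, 0.00813% and 0.00374% in IgG libraries. The share averaged 0.109 ± 0.0607% in antiCD47 and 0.0174 ± 0.0239% in IgG (SD, n = 4 each), and the difference of 0.0913 percentage points did not pass an exact two-sided permutation test (p = 0.0571, where the smallest p of this design is 0.0286). The groups overlapped through antiCD47 4 and IgG 2. Without antiCD47 4 the difference was 0.112 percentage points (exact permutation p = 0.0286 with IgG 2 kept, the smallest p the remaining libraries can give). Leaving out the library that made the groups overlap was bound to separate them, so no support is drawn from that p. Without IgG 2 the groups no longer overlapped and the difference was 0.103 percentage points (exact permutation p = 0.0571).

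The balance of the pair varied between libraries too. The count of Mt1 over that of Mt2 was 1.00, 1.04, 0.988 and 1.52 in antiCD47 libraries, against 1.70, 0.999, 1.59 and 1.93 in IgG libraries. The libraries with most metallothionein RNA (antiCD47 1, 2 and 3 and IgG 2) were near 1, and antiCD47 4 and IgG 1, 3 and 4 held more Mt1 than Mt2. The share of antiCD47 4 (0.0453%) was nearer to that of IgG 2 (0.0532%) than to those of IgG 1, 3 and 4 (0.00374% to 0.00813%). Its ratio was 1.52 where that of IgG 2 was 0.999, so the ratio did not simply follow the share. The log2 ratio differed by -0.43 between antiCD47 and IgG, which did not pass (exact two-sided permutation p = 0.114). The transcripts of Mt1 and Mt2 in the reference annotation share 0 runs of 31 bases, so reads of that length or longer can be told apart between them.

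Per kilobase of principal transcript, a scale on which genes can be compared, the 2 metallothioneins had the highest means of the 7 in both groups. Mt2 averaged 1128 ± 706 CPM per kb in antiCD47 and 153 ± 233 CPM per kb in IgG, and Mt1 averaged 1105 ± 615 in antiCD47 and 160 ± 205 in IgG (SD, n = 4 each). The genes were read in the same libraries, so these SDs are not the spread of the difference between Mt1 and Mt2. By library the count of Mt1 over that of Mt2 ran from 0.988 to 1.52 in antiCD47 and from 0.999 to 1.93 in IgG. Among 22339 genes with a length Mt2 and Mt1 ranked 68 and 71 in antiCD47 and 405 and 387 in IgG. Without IgG 2 the IgG means were 37.0 ± 17.2 CPM per kb for Mt2 and 58.2 ± 22.0 for Mt1 (SD, n = 3), against 27.2 ± 0.849 for Slc39a14, and in IgG 4 Mt2 (22.5) was below Slc39a14 (26.8). Slc39a14 followed with 75.4 ± 25.4 CPM per kb in antiCD47 and 31.9 ± 9.37 in IgG, then Slc39a4 with 17.8 ± 3.77 in antiCD47 and 22.2 ± 2.95 in IgG, then Slc30a1 with 8.18 ± 1.82 in antiCD47 and 5.29 ± 0.423 in IgG. At the low end, Slc30a10 averaged 3.40 ± 0.961 CPM per kb in antiCD47 and 1.36 ± 0.398 in IgG, and Mtf1 2.72 ± 0.288 in antiCD47 and 2.28 ± 0.196 in IgG. The order of that last pair was thus not the same in both groups, and the difference of the 2 within libraries was not tested.

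Mtf1, the zinc sensor itself, had 18.5, 23.7, 20.97 and 20.01 CPM in antiCD47, against 16.0, 19.1, 16.3 and 18.1 CPM in IgG. The groups overlapped at antiCD47 1 and IgG 2. The log2 fold change of 0.26 ± 0.09 did not pass (edgeR adjusted p = 0.0975, 0.0269 to 0.595 over the alternatives), and was 0.31 ± 0.10 without IgG 2 (adjusted p = 0.0833). With library totals as the scale, the median log2 value over all tested genes was -0.19 and that of Mtf1 was 0.067. The Mtf1 promoter window held 0 metal response cores.

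Among the importers, Slc39a14 was the member that rose. It had 297, 511, 439 and 239 CPM in antiCD47, against 131, 226, 139 and 132 CPM in IgG. Every antiCD47 library was above every IgG library, as in 9.51% of all tested genes, though antiCD47 4 only narrowly above IgG 2. The log2 fold change was 1.24 ± 0.26 (edgeR adjusted p = 0.0257) and, without IgG 2, 1.47 ± 0.24 (adjusted p = 0.017; 2.72e-05 to 0.0806 over the alternatives). The call was lost without antiCD47 3, IgG 1, IgG 3 or IgG 4 (adjusted p = 0.0738 to 0.0806), with the log2 value at 1.05 to 1.47 over the libraries left out in turn.

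Slc39a4 encodes ZIP4, the importer through which the small intestine absorbs dietary zinc, and it was the only one of the 7 with a negative value. It had 58.5, 34.3, 50.6 and 52.8 CPM in antiCD47, against 49.98, 69.2, 64.0 and 60.9 CPM in IgG. The groups overlapped and the log2 fold change of -0.32 ± 0.16 did not pass with all libraries (edgeR adjusted p = 0.195) or in any of 18 alternatives (0.0644 to 0.350). It was -0.25 ± 0.17 without IgG 2. Of 5 tested small intestine markers 0 passed by edgeR (2 at an unadjusted p under 0.05, while 1 fell by voom and 2 of 10 by DESeq2), and the list summed to 1964 to 4512 CPM in antiCD47 and 4350 to 5465 CPM in IgG, with Lct at 0 counts in every library. The sum was not split by gene and can rest on a single abundant gene, so no intestinal origin is read from it.

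Slc30a10 had the smallest p of the 7. Its product exports manganese from hepatocytes into bile, and it is grouped here with the zinc exporters by family. It had 13.6, 27.2, 19.8 and 18.7 CPM in antiCD47, against 7.61, 11.3, 6.14 and 6.72 CPM in IgG. The groups did not overlap, as in the 9.51% of all tested genes with non-overlapping higher values. The log2 fold change was 1.32 ± 0.24 (edgeR adjusted p = 0.0182) and, without IgG 2, 1.54 ± 0.22 (adjusted p = 0.0128; 2.12e-06 to 0.0646 over the alternatives). Leaving out antiCD47 3, IgG 1, IgG 3 or IgG 4 lost the call (adjusted p = 0.0566 to 0.0646), with the log2 value at 1.13 or above each time.

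Slc30a1 encodes ZnT1, the zinc exporter of the plasma membrane and a classical MTF1 target. It had 30.1, 49.3, 41.2 and 50.9 CPM in antiCD47, against 25.0, 30.2, 27.0 and 28.7 CPM in IgG. Here antiCD47 1 fell just below IgG 2, and the other antiCD47 libraries were above all IgG libraries. The log2 fold change was 0.63 ± 0.15 (edgeR adjusted p = 0.0328) and 0.67 ± 0.17 without IgG 2 (adjusted p = 0.0438; 0.00161 to 0.0923 over the alternatives). The call was lost without antiCD47 2, 3 or 4 or IgG 1, 3 or 4 (adjusted p = 0.0551 to 0.0923) and with scaling by library totals (log2 0.44, adjusted p = 0.0617).

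Both exporter promoters are printed because both genes rose and Slc30a1 is a known MTF1 target. Coordinates are of GRCm38.p6 from RefSeq, and capitals again mark the metal response core on either strand.
Slc30a10, chr1:185454598-185454847, + strand: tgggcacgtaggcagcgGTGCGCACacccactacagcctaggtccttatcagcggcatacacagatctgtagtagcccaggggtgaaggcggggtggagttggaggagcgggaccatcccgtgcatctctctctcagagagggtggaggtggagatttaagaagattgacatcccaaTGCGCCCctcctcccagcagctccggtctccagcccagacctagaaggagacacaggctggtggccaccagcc
Slc30a1, chr1:191906531-191906780, + strand: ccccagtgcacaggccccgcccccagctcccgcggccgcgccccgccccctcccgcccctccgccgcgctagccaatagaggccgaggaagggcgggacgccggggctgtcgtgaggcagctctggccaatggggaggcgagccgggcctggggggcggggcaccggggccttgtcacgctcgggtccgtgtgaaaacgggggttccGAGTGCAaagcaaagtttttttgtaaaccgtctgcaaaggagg
The windows of 300 bases held 3 cores for Slc30a10, of which 2 overlap on opposite strands of the same run of capitals, and 2 for Slc30a1. Neither held the STAT element. As with the metallothioneins, 25.7% of all windows hold at least 1 core.

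**Figure D2:**
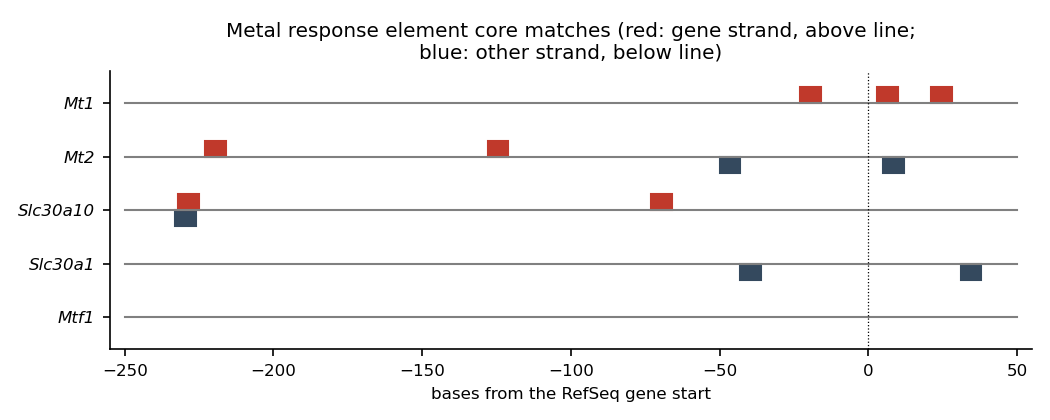
Positions of metal response element core matches in the windows of 5 genes, in bases from the RefSeq gene start on the horizontal axis, red above the line for the gene's strand and blue below it for the other strand. Mt2 carries 4 matches, Mt1 and Slc30a10 3 each, Slc30a1 2 and Mtf1 0.

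Across both transporter families, 20 of 24 genes had enough counts to be tested. Of these 6 rose and 0 fell, where 5.44% of all tested genes rose and 5.4% fell. By DESeq2 8 rose and 0 fell, where 1671 of 54309 genes rose and 1437 fell. With library totals as the scale 4 rose and 4 fell, where 428 of all 15472 tested genes rose and 3153 fell. Without IgG 2 5 rose, 2 importers and 3 exporters, and 0 fell, where 5.08% of all tested genes rose. In the SLC39 family 3 of 12 rose, with a median log2 fold change of 0.10 where all tested genes had -0.0064. Besides Slc39a14 these were Slc39a1, a plasma membrane importer, and Slc39a10. Slc39a1 averaged 125 ± 22.3 CPM in antiCD47 and 81.1 ± 9.76 CPM in IgG (SD, n = 4 each), a log2 fold change of 0.63 ± 0.13 (edgeR adjusted p = 0.025). Slc39a10 averaged 10.8 ± 2.91 CPM in antiCD47 and 6.76 ± 0.935 CPM in IgG, at 0.68 ± 0.19 (edgeR adjusted p = 0.0461). Its groups overlapped, and it passed in 7 of 18 alternatives, against 14 for Slc39a1. The call of Slc39a10 was lost with any library left out except antiCD47 1. Slc39a8, the closest relative of Slc39a14, averaged 19.9 ± 7.56 CPM in antiCD47 and 17.4 ± 1.97 CPM in IgG and did not pass (0.20 ± 0.21, adjusted p = 0.555).

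In the SLC30 family 3 of 8 rose, with a median of 0.22. Slc30a5, which loads zinc into the early secretory pathway, averaged 80.9 ± 30.4 CPM in antiCD47 and 41.1 ± 4.43 CPM in IgG, at a log2 fold change of 0.98 ± 0.22 (edgeR adjusted p = 0.0287). Slc30a7, another exporter into the secretory pathway, was at 0.30 ± 0.11 and did not pass (adjusted p = 0.104). Leaving out any one of antiCD47 3, IgG 1, IgG 3 or IgG 4 lost all the calls named in these results besides those of the 7 genes, 29 of 29, and calls over the whole table were then 21, 174, 92 and 2. Without antiCD47 2 13 of the 29 were lost, without IgG 2 5 and without antiCD47 4 2. All 29 kept their direction in each of these fits.

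**Figure D3:**
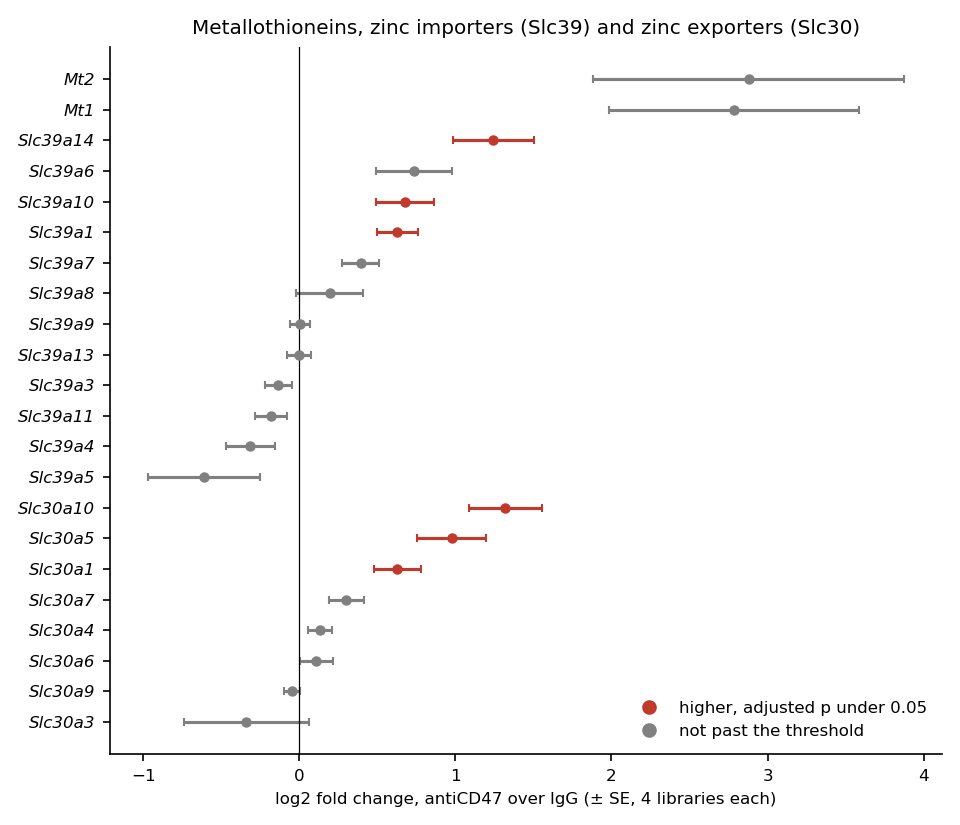
Log2 fold change of antiCD47 over IgG (± SE, 4 libraries each) for the tested metallothioneins, SLC39 importers and SLC30 exporters, red where the gene was higher at an adjusted p under 0.05 and grey otherwise. The 6 red points are all right of 0, and Mt1 and Mt2 lie furthest right with the widest bars and in grey.

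Genes for other metals were compared because SLC39A14 and SLC30A10 move manganese and metallothioneins bind copper. Of 11 manganese handling genes 4 rose and 0 fell, with a median of 0.24, where 5.44% of all tested genes rose and 5.4% fell. Of the 4, 2 are Slc39a14 and Slc30a10 themselves. The other two were Slc11a2, the DMT1 importer of iron and manganese, at 1.15 ± 0.26 (76.2 ± 29.1 CPM in antiCD47, 34.2 ± 6.54 CPM in IgG; edgeR adjusted p = 0.028), and Sod2, the mitochondrial manganese superoxide dismutase, at 0.51 ± 0.14 (296 ± 65.4 CPM in antiCD47, 207 ± 11.4 CPM in IgG; adjusted p = 0.0464). Without IgG 2 3 of the 11 rose. Of 12 copper handling genes 1 rose and 1 fell, with a median of 0.04. Counts of 1 in 12 are close to the shares over all tested genes, so no shift of copper handling is read from them. With library totals 0 rose and 4 fell, where 428 of all 15472 tested genes rose and 3153 fell. With upper quartile scaling, with no filter or without IgG 2, 0 rose and 1 fell. The copper importer Slc31a1 was higher by 0.30 ± 0.08 (adjusted p = 0.0471), and Atp7b, the pump that sends copper to bile and ceruloplasmin, fell by 0.54 on the log2 scale (adjusted p = 0.0321). Atp7b averaged 19.5 ± 4.03 CPM in antiCD47 and 28.4 ± 1.20 CPM in IgG.

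Signals known to induce metallothioneins and Slc39a14 were read from the same fit. A list of interleukin-6 and STAT3 signalling, which also holds the interleukin-1 genes Il1b and Il1r1, had 16 tested genes. Of these 5 rose and 0 fell, with a median of 0.33, where 5.44% of all tested genes rose and 5.4% fell. DESeq2 called 6 higher and 1 lower, and 6 rose and 1 fell without IgG 2. Library totals gave 3 and 1, where 428 of all 15472 tested genes rose and 3153 fell. The gene called lower in some of these was Myc, singled out after its values were seen, at -1.39 ± 0.43 with all libraries (8.56 ± 0.808 CPM in antiCD47, 22.4 ± 14.9 CPM in IgG; edgeR adjusted p = 0.0631, 0.0275 to 0.163 over the alternatives). The receptor subunit Il6st rose by 0.82 ± 0.14 (291 ± 60.8 CPM in antiCD47, 165 ± 13.4 CPM in IgG; edgeR adjusted p = 0.0164) and Stat3 by 1.07 ± 0.26 (220 ± 47.2 CPM in antiCD47, 105 ± 43.7 CPM in IgG; adjusted p = 0.0324). The kinase gene Jak1 rose (0.52). The other 2 of the 5 were the interleukin-1 receptor Il1r1 (1.49) and the cytokine Il1b (0.78), each at an edgeR adjusted p of 0.0438. The groups of Il1r1 overlapped. Il1b was low, at 3.17 ± 0.732 CPM in antiCD47 and 1.85 ± 0.350 CPM in IgG, and passed in 8 of 18 alternatives. Its call was lost with any library left out except antiCD47 1. Il6ra (0.16, adjusted p = 0.487) and the STAT3 feedback gene Socs3 (0.20, adjusted p = 0.797) did not pass, and Il6 itself had 13 counts over the antiCD47 libraries and 6 over the IgG libraries and was not tested. Stat3 was at 170.0 CPM in IgG 2, against 79.3 to 86.0 CPM in the other IgG libraries, and Socs3 at 30.4 CPM, against 7.71 to 8.37 CPM. Without IgG 2 the log2 value of Socs3 was 0.97.

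Acute phase proteins, the largest list, had 19 of 22 higher and 0 lower at a median of 1.43, where 5.44% of all tested genes rose. By share the neutrophil markers (9 of 9, median 1.68) and red cell markers (7 of 7, median 1.57), given below, were called more fully. Of the 22, 20 were higher without IgG 2, 14 without antiCD47 2, and 0 without antiCD47 3, IgG 1, IgG 3 or IgG 4. Steap4, a metalloreductase of iron and copper, was at 2.65 ± 0.48 (edgeR adjusted p = 0.0191), Serpina3n at 1.84, Orm2 at 1.83 and the endotoxin carrier Lbp at 1.76. Glucocorticoid response genes were called in neither direction by edgeR, 0 of 17, with 1 at an unadjusted p under 0.05 (Fkbp5, 0.34 ± 0.11). DESeq2 called 1 of 17 higher, voom 0 and voom with quality weights 2. With library totals 3 were lower, where 428 of all 15472 tested genes rose and 3153 fell. Without IgG 2 0 of 17 were called by edgeR, with 3 at an unadjusted p under 0.05. The glucocorticoid receptor Nr3c1 was at 0.04 and Tsc22d3 at -0.43, neither past the threshold (adjusted p = 0.702 and 0.162). Of 14 metal and oxidant stress genes 2 rose, the heme oxygenase Hmox1 (1.64 ± 0.31, adjusted p = 0.0209) and the thioredoxin reductase Txnrd1 (0.65 ± 0.15, adjusted p = 0.0318), at a median of 0.01, and with library totals 2 rose and 2 fell. Of 12 ER stress genes 3 rose (Atf4 0.52, Xbp1 0.63, Dnajb9 1.04), at a median of 0.58, and DESeq2 called 6. Without IgG 2 these lists again had 2 of 14 and 3 of 12 higher.

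The genes whose profile over the 8 libraries lay nearest to Mt1 were Mt2, Saa2, Saa1, Steap4 and Lcn2, among 11987 candidates with a mean of at least 1 CPM. Likeness was the root mean square difference in log2 CPM after the IgG mean was subtracted, and was 0.436 for Mt2, 0.457 for Saa2, 0.478 for Saa1, 0.726 for Steap4 and 0.832 for Lcn2. Saa1 and Saa2 encode serum amyloid A, the acute phase apolipoproteins, and Lcn2 encodes lipocalin-2, which captures bacterial iron carriers. Saa2 had 1258, 3343, 3663 and 1352 CPM in antiCD47, against 153, 572, 112 and 109 CPM in IgG. As in Mt1, antiCD47 2 and 3 were the highest libraries and IgG 2 the highest control. These genes were picked for their likeness, which is a description over 8 libraries.

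Nearest to Slc39a14 lay Mctp2 (0.105), Snx10 (0.106), the fibrinogen chain Fgb (0.120), the interleukin-17 receptor Il17ra (0.121) and the protease inhibitor Serpina10 (0.129). Fgb had 5386, 8835, 7834 and 4540 CPM in antiCD47, against 2087, 3888, 2168 and 2145 CPM in IgG. Its order of libraries was that of Slc39a14 among the antiCD47 libraries, with antiCD47 2 highest and antiCD47 4 lowest, and IgG 2 was again the highest IgG library.

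**Figure D4:**
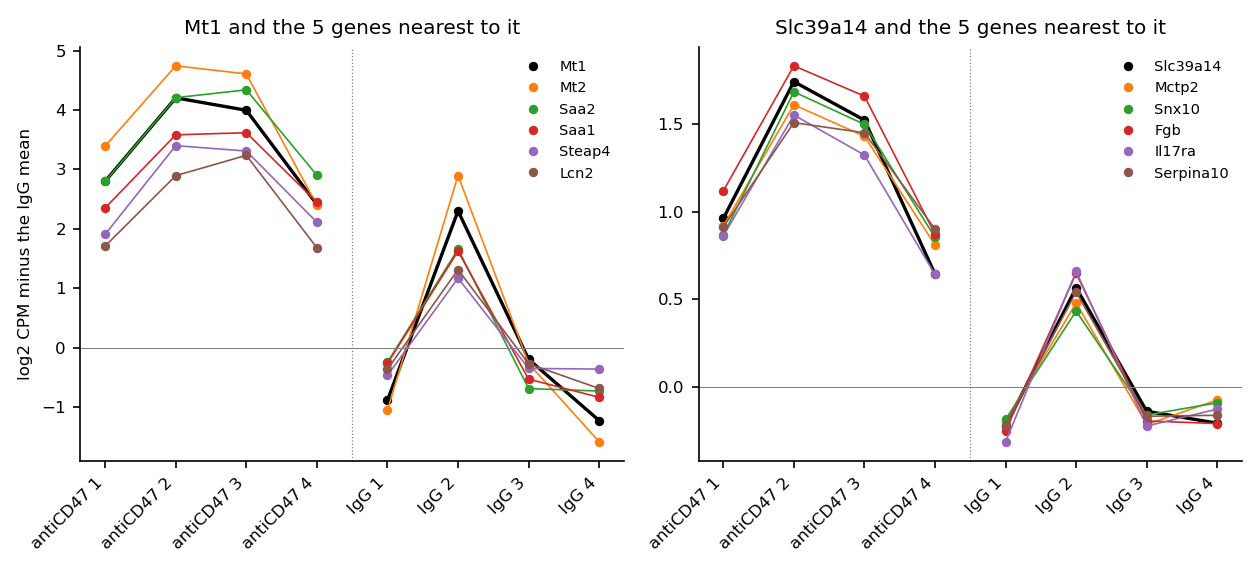
Log2 CPM minus the IgG mean in each of the 8 libraries for Mt1 (left, black) and Slc39a14 (right, black) and for the 5 genes nearest to each, antiCD47 libraries left of the dotted line and IgG libraries right of it. All curves have their IgG peak at IgG 2 and their higher antiCD47 values at antiCD47 2 and 3.

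Markers of several other liver cell types moved with the treatment, where 5.44% of all tested genes rose and 5.4% fell. In whole liver fewer cells of a type and less RNA per cell cannot be told apart. Of 9 sinusoidal endothelial markers 0 were called by edgeR with all libraries (1 fell without IgG 2). Of 11 hepatocyte markers 1 rose and 0 fell. Of 12 Kupffer cell markers 7 rose, with summed levels of 676 to 981 CPM in antiCD47 and 424 to 658 CPM in IgG. All 9 tested neutrophil markers rose (17.6 to 37.4 CPM in antiCD47, 7.35 to 9.57 CPM in IgG), as did all 7 tested red cell markers (1232 to 2216 CPM in antiCD47, 445 to 680 CPM in IgG). Of 9 bile duct markers 8 fell (98.0 to 335 CPM in antiCD47, 407 to 561 CPM in IgG) and of 10 stellate and myofibroblast markers 4 fell (552 to 754 CPM in antiCD47, 840 to 1184 CPM in IgG). The part of these shifts in the metallothionein and transporter results was not tested. Without IgG 2 4 of 12 Kupffer cell, 6 of 9 neutrophil and 7 of 7 red cell markers rose, and 7 of 9 bile duct and 4 of 10 stellate markers fell. Without IgG 4 each of these lists had 0 markers called. In IgG 2 itself the Kupffer markers summed to 424 CPM, the lowest of the IgG libraries, and the neutrophil markers to 9.57 CPM, the highest of them.

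**Figure D5:**
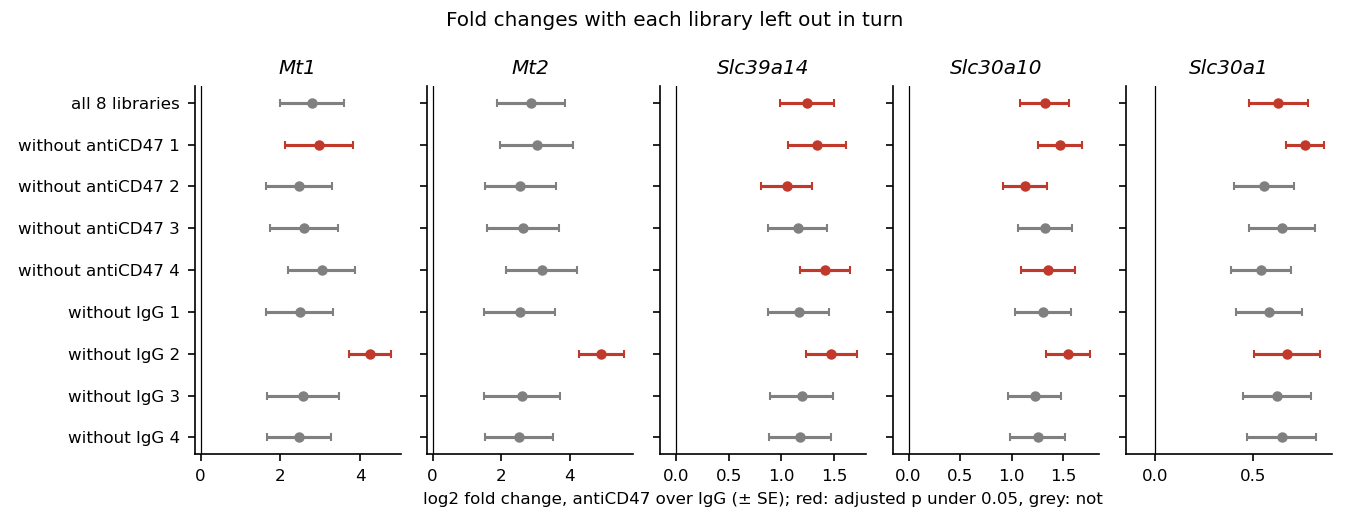
Log2 fold change of antiCD47 over IgG (± SE) for 5 genes with all 8 libraries and with each library left out in turn, red where the adjusted p was under 0.05 and grey otherwise. Mt1 and Mt2 move right and turn red without IgG 2, Mt1 is also red without antiCD47 1, and the 3 transporters stay right of 0 throughout while several of their points are grey.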

How the data were processed

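Polyadenylated liver RNA was sequenced from TruSeq libraries, per the labels' protocols. The authors deposited estimated counts per Ensembl gene, whole numbers with no normalization; no source used here says if they were rounded from Salmon output. Salmon 1.3.0, DESeq2 1.32.0 and the build GRCm39 are named, with no role stated, per the submitters' processing notes. The authors' deposited comparison table gives a mean normalized signal, log2 fold changes, p-values and a rank score, per the file headers, with the direction not stated.

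Of 54309 genes, 51484 got a symbol from GENCODE M21 (GRCm38) and 17 more from the authors' table. GENCODE also gave the length of the principal transcript. Genes passing filterByExpr were scaled by TMM and compared with glmQLFit and glmQLFTest in edgeR 4.0.16 (R 4.3.3), two-sided. The metallothionein share and ratio went through exact permutation (70 splits with all 8 libraries, scipy 1.17.1). A prior count of 2 was used for log2 CPM. The fits were checked on simulated data. Promoter windows came from a RefSeq table (GRCm38.p6), which matched 5 of the 7 genes; Slc39a14 and Slc39a4 were not matched. Figures were drawn with matplotlib 3.10.9.

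The 7 genes and 19 lists were chosen with earlier results of these data known. Named were the 7 genes, transporters past the threshold, up to 4 genes per pathway list with the smallest p past it, some fixed genes, and the 5 genes most like Mt1 and the 5 most like Slc39a14. The 18 alternatives were 3 other scalings (DESeq2 size factors, library totals, upper quartile), dropping the filter, raising it to 10 counts, DESeq2 1.42.0, limma 3.58.1 voom (plain, and with quality weights), the robust fit, the replicate number as a block, and 8 left-out libraries.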

Additional observations from a re-analysis of the deposited data

Results flagged for a closer look

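Of 126 groups of 4 libraries examined, 24 had a library far from its 3 fellows by Dixon's criterion (its gap to the nearest against the whole range), where chance gives about 1 in 20 of independent groups. These groups were not independent: 9 of the genes were named for a profile like that of Mt1 or Slc39a14, both high in IgG 2, and the sums share genes, so that rate is no measure for the count. In 21 of the 24 the library was IgG 2, above IgG 1, 3 and 4. Among the metal genes it held 256 CPM of Mt1 (others 22.2 to 45.5), 257 CPM of Mt2 (11.5 to 28.6), 226 CPM of Slc39a14 (131 to 139) and 47.7 CPM of Slc30a5 (38.5 to 39.5), and a metallothionein share of 0.0532% (0.00374% to 0.00813%). Among signalling and stress genes it held 170.0 CPM of Stat3, 30.4 CPM of Socs3, 57.6 CPM of Atf4 and 29.9 CPM of Il17ra, and 1097 CPM of the summed interleukin-6 and STAT3 list. Among secreted and acute phase genes it held 700.4 CPM of Steap4, 806 CPM of Serpina3n, 113 CPM of Orm2, 572 CPM of Saa2, 881 CPM of Saa1, 334 CPM of Lcn2, 3888 CPM of Fgb and 192 CPM of Serpina10, and 36343 CPM of the summed acute phase list. Mctp2 stood at 18.7 CPM and Snx10 at 69.7 CPM in IgG 2.

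The other three were single values. Slc39a8 was at 31.2 CPM in antiCD47 4, against 15.5 to 16.7 CPM in the other antiCD47 libraries. The log2 ratio of Mt1 to Mt2 was 0.61 in antiCD47 4, against -0.02 to 0.06 in the other antiCD47 libraries. Il6ra was at 46.5 CPM in IgG 4, below the 69.8 to 70.7 CPM of the other IgG libraries.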

How the results depend on the processing

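The count of the 7 genes called higher was 3 with all libraries, 5 by voom, 6 by voom with quality weights and 0 to 5 over the libraries left out in turn. It was 0 without antiCD47 3, IgG 1, IgG 3 or IgG 4 and 5 without antiCD47 1 or IgG 2. Over all genes, 842 rose and 836 fell; the counts were 428 and 3153 with library totals, 1671 and 1437 by DESeq2, 2133 and 2198 by voom with quality weights, and 2 to 1843 and 0 to 1787 over the libraries left out. With the replicate number as a block 2425 genes were called in either direction, against 1678 without, the 7 genes counted 5 higher, and the glucocorticoid list 2 higher and 1 lower. Same-numbered libraries deviated together only weakly (correlations of 0.032, 0.157, -0.023 and 0.035), and not every library correlated best with its own number, so the block is not read as a pairing. The metallothionein share differed by 0.0715 to 0.112 percentage points over the libraries left out. Signs turned for values that did not pass: with library totals Il6ra was at -0.027 and Nr3c1 at -0.15, with upper quartile scaling Nr3c1 was at -0.023. Over the libraries left out Socs3 ran from -0.061 (without antiCD47 2) to 0.97, Nr3c1 from -0.00079 (without antiCD47 2) to 0.079 and Slc39a8 from -0.10 (without antiCD47 4) to 0.30. The cause was not tested. Il6, Mt3 and Mt4 had too few counts to pass the filter; the lowest count of any of the 7 genes in a library was 330.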

Other observations

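In the authors' deposited table Mt2 has a log2 fold change of 0.07 with a standard error of 0.22 beside a p-value of 0.011, and Mt1 has 2.12 with 1.13 beside 0.00134. The counts of both genes were nearly alike in antiCD47 1, 2 and 3 and IgG 2, and DESeq2 on the same counts gave 2.89 for Mt2 and 2.79 for Mt1. The p-values of the authors' deposited table were close to those of DESeq2 on the counts for Mt2 (adjusted p = 0.0578 in both). They were not close for Mtf1, with an adjusted p of 0.330 deposited and 0.0735 by DESeq2 on the counts. The log2 value over its standard error did not give the listed p for any of the 7 genes in the authors' deposited table: it would correspond to a two-sided p of 0.742 for Mt2 and 0.0599 for Mt1, and 0.252 for Mtf1, listed at 0.152. No source used here states that table's direction. The authors' deposited table lists adjusted p-values of 5.02e-06 for Slc30a10, 4.9e-05 for Slc39a14, 0.00256 for Slc30a1, 0.0137 for Mt1, 0.0578 for Mt2, 0.216 for Slc39a4 and 0.330 for Mtf1.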
